A study of Mus musculus with 46 samples.

Results

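Conventional T cells (Tcon) of pregnant mice were compared with those of non-pregnant mice through the rearranged gene of the T cell receptor beta chain (TCRβ). All 4 Tcon libraries with a table at embryonic day 18 of pregnancy (E18) or without pregnancy were taken, of 17 libraries with a table in the series. The labels list 20 Tcon samples in all, and the others were not analysed here. All mice were of the DEREG strain, in which a transgene marks and can deplete Foxp3-expressing cells, and all cells were CD4+Foxp3- cells from spleen and lymph nodes. Animal age is not given in the labels. The groups were pregnant mice with experimental autoimmune encephalomyelitis (EAE, a model of multiple sclerosis induced by immunization), non-pregnant mice with EAE, pregnant naive mice and non-pregnant naive mice. Each group held 1 library, so pregnancy was compared within EAE and within naive mice, and no group has a spread of its own. The tables list TCRβ rearrangements only, so the Foxp3- label could not be checked against marker genes.

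A TCRβ gene is made in the thymus by joining 1 V, 1 D and 1 J segment, with bases trimmed from the segment ends and bases added between them by terminal deoxynucleotidyl transferase. The joint codes for the third complementarity-determining region (CDR3), the loop of the receptor that lies over the peptide. All descendants of a T cell carry the same joint, so reads per joint rise with clone size when the template is genomic DNA, as it was here. Median reads per clonotype also differed between V segments within each library, as given below. The part of the primers in this was not tested. Conventional CD4+ T cells include helper cells that expand after immunization, and in EAE such cells start the inflammation of the central nervous system. Here a clonotype is defined by its V segment and the amino acids of its CDR3. Segment shares were counted over clonotypes, each once, unless reads are named.

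The 5 largest clonotypes of each EAE library and the largest of each naive library are shown first, as examples of the clones compared below. Each sequence is the CDR3 from the conserved cysteine to phenylalanine, 5′ to 3′ on the coding strand, as the deposited tables give it. The segments lie on mouse chromosome 6. Capitals mark bases that were assigned to neither V, D nor J.
The largest clonotypes of the EAE E18 library were these.
TRBV1 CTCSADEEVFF: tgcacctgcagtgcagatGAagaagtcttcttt
TRBV19 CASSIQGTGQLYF: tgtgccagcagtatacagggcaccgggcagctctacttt
TRBV1 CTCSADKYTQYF: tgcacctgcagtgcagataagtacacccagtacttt
TRBV19 with TRBJ2-2: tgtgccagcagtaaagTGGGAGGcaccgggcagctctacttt
TRBV13-1 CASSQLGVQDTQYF: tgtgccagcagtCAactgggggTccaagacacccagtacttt
The largest clonotypes of the EAE non-pregnant library were these.
TRBV19 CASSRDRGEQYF: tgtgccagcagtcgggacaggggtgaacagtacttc
TRBV13-2 with TRBJ2-1: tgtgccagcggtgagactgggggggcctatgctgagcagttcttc
TRBV1 with TRBJ2-5: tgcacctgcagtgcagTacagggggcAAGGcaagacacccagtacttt
TRBV14 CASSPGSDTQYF: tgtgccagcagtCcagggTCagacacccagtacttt
TRBV13-2 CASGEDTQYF: tgtgccagcggtgaagacacccagtacttt
The largest clonotypes of the naive E18 and the naive non-pregnant library were these, in this order.
TRBV13-2 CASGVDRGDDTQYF: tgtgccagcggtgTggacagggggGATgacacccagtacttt
TRBV1 with TRBJ2-2: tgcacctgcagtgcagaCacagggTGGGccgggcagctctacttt
Of these 12 CDR3s, 5 are covered by V, D and J bases with no base left over, among them the largest clonotype of the EAE non-pregnant library.

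The libraries were of like depth, with 406536 reads for EAE E18, 404098 for EAE non-pregnant, 366714 for naive E18 and 380987 for naive non-pregnant. They held 13204, 8172, 16231 and 18776 clonotypes in the same order, which is that of all values given in a row below (the EAE pair first, and the E18 library first in each pair). The EAE non-pregnant library stood apart from the others: 38.8% of its rearrangements had 1 read, against 15.3% to 17.03% in the other 3. Leaving it out leaves the naive pair alone, whose difference is therefore given beside each EAE difference. Where no read was found, up to 3 reads are allowed, or 0.000738% to 0.000818% of a library. PCR reads without molecular identifiers are not independent molecules, so the Wilson 95% confidence intervals and these limits cover counting error only. The number of sorted cells is not given in the sources used here, so large clones and few cells cannot be told apart.

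Clone sizes differed between pregnant and non-pregnant mice in opposite ways in the EAE and naive pairs. With EAE, the largest clonotypes took less of the reads in the pregnant mouse, and more clonotypes were found. In naive mice, the largest clonotypes took nearly the same share and fewer clonotypes were found in the pregnant mouse. The 10 largest clonotypes held 4.54% of reads in EAE E18 (95% interval 4.47% to 4.60%) and 8.18% in EAE non-pregnant (8.10% to 8.27%). They held 0.809% in naive E18 (0.780% to 0.838%) and 0.692% in naive non-pregnant (0.666% to 0.719%). Both EAE libraries lay above both naive libraries, and the intervals did not overlap within either pair. The differences, E18 minus non-pregnant, were -3.64 percentage points with EAE and 0.116 in naive mice, with a mean of -1.76 (SD 2.66 over the 2 differences).

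The same order held further down the size ranking. In EAE E18, 38 clonotypes each exceeded 0.1% of reads and together took 8.46%. In EAE non-pregnant, 135 clonotypes did so and took 28.2%. In naive E18, 1 clonotype did so, with 0.141% of reads, and in naive non-pregnant there was 0, with the largest at 0.0969%. The number of clonotypes that held 50% of reads was 1413 in EAE E18 and 462 in EAE non-pregnant, while it was 2451 in naive E18 and 2746 in naive non-pregnant. The largest 1000 clonotypes held 42.2%, 68.9%, 27.7% and 26.0% of reads.

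After thinning to 366714 reads, 13021 clonotypes were found in EAE E18 and 7888 in EAE non-pregnant. The same depth gave 16231 in naive E18 and 18679 in naive non-pregnant. The difference was 5134 clonotypes more at E18 with EAE and -2448 in naive mice, a mean of 1343 (SD 5361). Evenness, the Shannon entropy of read shares over its maximum, was 0.910 in EAE E18 and 0.846 in EAE non-pregnant. It was 0.940 in naive E18 and 0.941 in naive non-pregnant. With 10000 reads the order of the 4 libraries was already the same, with 4818 clonotypes in EAE E18, 2839 in EAE non-pregnant, 5803 in naive E18 and 6144 in naive non-pregnant.

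Permuting the gestational label within EAE and within naive mice gives 4 assignments, so the exact two-sided permutation test cannot give a p below 0.5, and for these 3 measures it gave 1. The only repeated group of DEREG mice with several tables, 5 libraries of Foxp3+ regulatory T cells (Treg) from EAE E18 mice, gives a yardstick of the spread between animals for another cell type. In it, the share of the 10 largest clonotypes had an SD of 15.4 percentage points around 18.9%. Clonotypes at that depth, or at the library's own total where lower, had an SD of 1915 and evenness an SD of 0.109. Both differences in clonotype number were above this SD, and the differences in the share of the 10 largest and in evenness were below it. A difference between libraries varies more than single libraries do, so a difference above such an SD is not shown to exceed the spread. This holds for every SD of a repeated group given here. The 3 EAE periphery libraries, from non-pregnant C57BL/6 WT mice and labelled as CD8-T cells, gave another reading, with SDs of 0.555 percentage points, 3654 clonotypes and 0.0128 in evenness. Against these, the EAE differences in all 3 measures were larger, while the naive differences were smaller. The reading thus depends on which group serves as the yardstick, and neither is Tcon from DEREG mice.

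**Figure D1:**
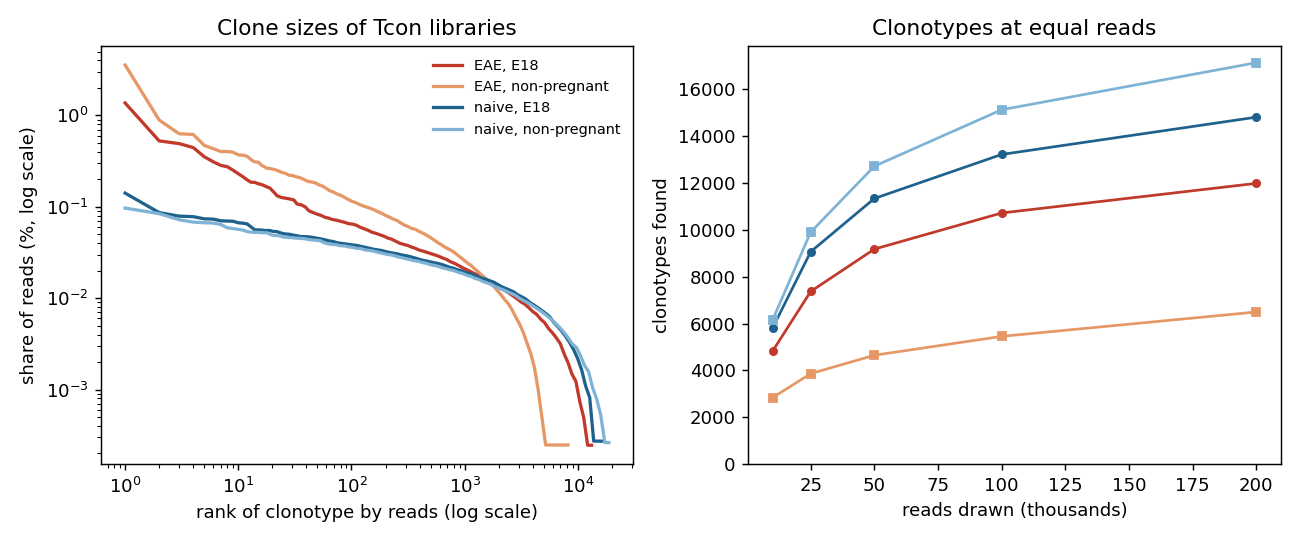
Left, share of reads of each clonotype (%, log scale) against its rank (log scale) in the 4 Tcon libraries. Right, mean clonotypes found against reads drawn; the EAE non-pregnant library has the largest clones (up to 3.57% of reads) and the fewest clonotypes at each depth plotted, and the naive libraries lie close together in the left panel.

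The largest clonotype of the EAE E18 library, TRBV1 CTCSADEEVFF, held 1.37% of its reads (5567 reads). It had 0 reads in EAE non-pregnant, 4 in naive E18 and 0 in naive non-pregnant. The others of the 5 largest in EAE E18 held 0.353% to 0.526%. TRBV19 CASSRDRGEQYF, the largest of EAE non-pregnant, held 3.57% of its reads (14413 reads), with 3 reads in EAE E18, 1 in naive E18 and 0 in naive non-pregnant. Without a molecular barcode, 1 to 4 reads opposite 5567 or 14413 in another library cannot be told apart from carry-over between libraries. The other 4 of that library held 0.470% to 0.891%. TRBV13-2 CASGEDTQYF, the fifth, was encoded by 3 nucleotide sequences and was the only one of the 10 largest EAE clonotypes with more than 100 reads in another Tcon library, 114 in naive non-pregnant.

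In the naive libraries the 5 largest clonotypes held 0.0739% to 0.141% at E18 and 0.0669% to 0.0969% without pregnancy. Of the 5 at E18, 3 used TRBV13-2, with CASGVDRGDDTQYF the largest at 518 reads, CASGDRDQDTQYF at 317 and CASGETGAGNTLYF at 290. The remaining pair were TRBV16 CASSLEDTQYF at 286 reads and TRBV4 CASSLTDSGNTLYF at 271. TRBV4 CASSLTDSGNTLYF occurred in all 4 libraries, with 29 reads in EAE E18, 106 in EAE non-pregnant and 20 in naive non-pregnant. Of the 5 in naive non-pregnant, 3 used TRBV1, led by the TRBV1 with TRBJ2-2 clonotype at 369 reads. A TRBV1 clonotype with TRBJ2-5, encoded by 3 nucleotide sequences, followed with 321 reads and TRBV1 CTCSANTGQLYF with 275. The others were TRBV26 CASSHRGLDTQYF with 259 reads and TRBV26 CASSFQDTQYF with 255.

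Few clonotypes were shared by any pair of libraries. EAE E18 and EAE non-pregnant shared 459 clonotypes, 3.48% of the former and 5.62% of the latter. Naive E18 and naive non-pregnant shared 904, which is 5.57% and 4.81%. Both E18 libraries shared 721, 5.46% of EAE E18 and 4.44% of naive E18. Both non-pregnant libraries shared 535, 6.55% of EAE non-pregnant and 2.85% of naive non-pregnant. Per 1000000 possible pairs of clonotypes that is 4.25 for the EAE pair, 2.97 for the naive pair, 3.36 for the E18 pair and 3.49 for the non-pregnant pair. For the pairs that differ in both states it was 2.86 (EAE E18 with naive non-pregnant) and 3.94 (EAE non-pregnant with naive E18). Without rearrangements that had at least 100 times as many reads in another library of the series, the rates of the 6 pairs, in the order given, were 3.81, 2.93, 3.24, 3.39, 2.80 and 3.72.

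Under that filter, 448 clonotypes occurred in both E18 libraries and in no non-pregnant Tcon library, of 689 in both E18 libraries and 28637 in either. Another 322 occurred in both non-pregnant libraries and in no E18 library, of 515 in both non-pregnant libraries and 26340 in either. The 3 with the highest mean share in each set are shown to name what the gestational states have of their own in these 4 libraries. The first 3 were found at E18 and the last 3 without pregnancy, and capitals mark unassigned bases as above.
TRBV13-2 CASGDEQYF: tgtgccagcggtgatgaacagtacttc
TRBV2 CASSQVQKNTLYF: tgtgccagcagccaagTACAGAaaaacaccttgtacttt
TRBV2 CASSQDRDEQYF: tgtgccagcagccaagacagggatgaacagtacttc
TRBV13-2 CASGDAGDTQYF: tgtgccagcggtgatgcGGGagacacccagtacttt
TRBV16 with TRBJ1-3: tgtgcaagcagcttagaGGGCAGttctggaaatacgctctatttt
TRBV13-2 with TRBJ2-5: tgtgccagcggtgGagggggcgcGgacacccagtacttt
TRBV13-2 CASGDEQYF held 0.0937% of reads in EAE E18 and 0.0395% in naive E18, and 7 of the 17 libraries of the series held it. TRBV13-2 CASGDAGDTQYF held 0.327% in EAE non-pregnant and 0.0215% in naive non-pregnant, and 6 of the 17 libraries held it. Of the 6 clonotypes, 5 had at least 5 times the share in the EAE library that they had in the naive one, TRBV13-2 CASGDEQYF being the exception. The EAE libraries held the larger clones, so the choice by mean share favours clonotypes high in EAE, and this imbalance is no separate result. With 1 library per group, absence from the opposite state has no replicate check.

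Another 57 clonotypes occurred in all 4 Tcon libraries under the filter. Their CDR3s had a mean length of 13.2 residues, against 13.82 to 13.87 over all clonotypes of the 4 libraries. Of their 318 rearrangements, 152 had a D assigned, and 45.4% of these had no unassigned base, against 16.0% to 17.6% over all. No D was assigned to 52.2%, against 28.1% to 29.5% over all. TRBV13-2 made up 29.8% of these 57 clonotypes, against 12.6% to 16.3% of all clonotypes. TRBV16 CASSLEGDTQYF held 0.107% of reads in EAE E18 and 0.116% in EAE non-pregnant, against 0.00136% in naive E18 and 0.000525% in naive non-pregnant. It was encoded by several nucleotide sequences and occurred in 14 of the 17 libraries. Its like share in both EAE libraries was not general. TRBV1 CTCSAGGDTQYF and TRBV13-2 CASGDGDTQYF, also in all 4, held 0.402% and 0.169% in EAE non-pregnant. In EAE E18 they held 0.000492% and 0.0108%.

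V and J segments were then compared. In a fit of all 4 libraries with immunization as a term, 0 of 34 segments counted by clonotypes differed between E18 and non-pregnant mice (edgeR quasi-likelihood test, two-sided, Benjamini-Hochberg adjusted p under 0.05), a called share of 0%. The smallest adjusted p was 0.836, and 0 segments had an unadjusted p under 0.05. DESeq2 called 1 segment, TRBJ1-2, which is described with the J segments. The DESeq2 p-values can rest on counting error alone where little spread is fitted, with clonotypes or reads then taken as replicates. By reads edgeR called 0 of 35 segments, again 0%, with 2 at an unadjusted p under 0.05. The fit has 1 residual degree of freedom, so its spread is the disagreement of the EAE and naive differences moderated over segments. Of the 23 V segments, 6 were higher at E18 in both pairs, 5 were lower in both and 12 went opposite ways. Of the 13 J segments, 3 were higher in both, 3 lower in both and 7 opposite.

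The J segments lie in clusters of 7 and 6 used here, TRBJ1 and TRBJ2, and each cluster has a D segment upstream of it. TRBJ1-2 (chromosome 6, 41534001 to 41534048, GRCm38.p6, the same build as mm10) had the smallest unadjusted p of the segments by clonotypes. It made up 4.998% of clonotypes in EAE E18 and 5.67% in EAE non-pregnant. It made up 4.29% in naive E18 and 5.25% in naive non-pregnant. Both pregnant libraries lay below both non-pregnant ones, by 0.667 percentage points with EAE and 0.952 in naive mice, and the counting intervals overlapped in the EAE pair. The fitted log2 difference was -0.23 (SE 0.05, unadjusted p 0.0512, adjusted p 0.836 by edgeR). DESeq2 gave -0.25 (SE 0.06, adjusted p 0.000155). By reads TRBJ1-2 held 2.04% in EAE E18, 2.94% in EAE non-pregnant, 1.55% in naive E18 and 2.42% in naive non-pregnant, with a log2 difference of -0.55 (SE 1.18, adjusted p 0.924 by edgeR).

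TRBJ1-5 (chromosome 6, 41535084 to 41535133) had the largest log2 difference of any segment in the EAE pair. It made up 0.129% of clonotypes in EAE E18 (17 clonotypes, 95% interval 0.0804% to 0.206%) and 1.66% in EAE non-pregnant (136 clonotypes, 1.41% to 1.97%). It made up 0.111% in naive E18 and 0.128% in naive non-pregnant. Only the EAE non-pregnant library was high, and the other 3 did not differ beyond their intervals. The fitted log2 difference was -1.98 (SE 1.44, adjusted p 0.836 by edgeR).

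The 136 TRBJ1-5 clonotypes of EAE non-pregnant used 16 V segments, 27 of them TRBV13-2, and 70 had 10 or more reads, with 276 at most, while 24.3% had 1 read. Over all 17 libraries of the series, TRBJ1-5 fell into separate ranges, 0.111% to 0.234% in 7 libraries and 1.18% to 3.13% in the other 10. Both ranges occurred among the 5 replicates of Treg from EAE E18 mice, with 1.21% in 1 library and 0.159% to 0.234% in the other 4. The gap between the ranges thus lay between replicates of 1 group as well as between EAE E18 and EAE non-pregnant Tcon. The labels describe the primers alike for all samples, and whether 1 primer mix served all libraries was not tested. This limits the TRBJ1-5 values, and the values of the TRBJ1 cluster and of TRBV13-2 with TRBJ1-5 that include them. The EAE pair lay across the ranges, with E18 in the low and non-pregnant in the high one. Both naive libraries lay in the low range. Whether the other EAE differences, such as those in clone sizes, V use and inserted bases, go with the same split was not tested.

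**Figure D2:**
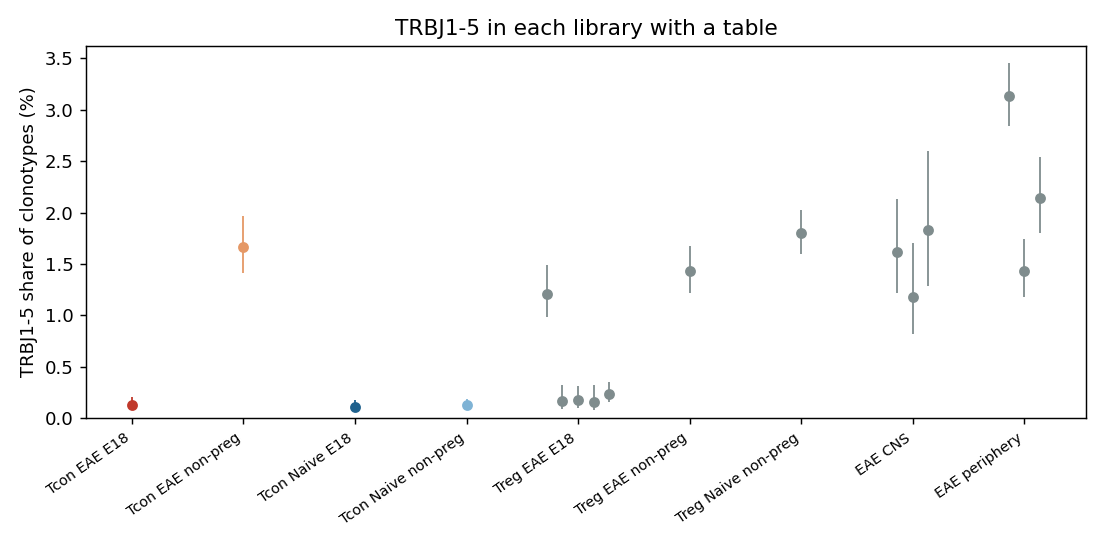
TRBJ1-5 share of clonotypes (%) in each of the 17 libraries with a table, by group, with Wilson 95% intervals; Tcon libraries are coloured. EAE non-pregnant is at 1.66% and the other 3 Tcon libraries at 0.111% to 0.129%, while the 5 Treg EAE E18 replicates occupy both ranges.

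TRBJ1-1 made up 11.5% of clonotypes in EAE E18, 11.0% in EAE non-pregnant, 11.9% in naive E18 and 11.4% in naive non-pregnant. TRBJ1-3 made up 6.54%, 6.90%, 7.02% and 7.36% in the same order, and was lower at E18 in both pairs. TRBJ1-6 stood at 3.77% to 4.21% in the 4 libraries. TRBJ1-4 stayed at 0.257% to 0.327% and TRBJ1-7 at 0.0122% to 0.0616%, the latter with 1 to 10 clonotypes per library. TRBJ2-7, the most used J segment, made up 20.1% in EAE E18, 17.99% in EAE non-pregnant, 18.96% in naive E18 and 18.6% in naive non-pregnant, higher at E18 in both pairs.

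TRBJ2-5 made up 15.5% of clonotypes in EAE E18 and 17.1% in EAE non-pregnant, and 16.0% in both naive libraries. By reads it held 23.9%, 27.4%, 22.6% and 25.5% in the order used above, the largest share of any J segment, and DESeq2 called it lower at E18 by reads (log2 -0.16, adjusted p 0.00113) where edgeR did not (log2 -0.15, SE 0.19, adjusted p 0.924). TRBJ2-1, TRBJ2-2, TRBJ2-3 and TRBJ2-4 each went opposite ways in the 2 pairs. TRBJ2-1 made up 9.94% in EAE E18 against 10.9% in EAE non-pregnant. TRBJ2-2, TRBJ2-3 and TRBJ2-4 were higher in EAE E18 than in EAE non-pregnant, at 7.21% against 6.73%, 9.48% against 8.49% and 10.1% against 8.97%.

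The whole TRBJ1 cluster made up 27.6% of clonotypes in EAE E18 and 29.8% in EAE non-pregnant. It made up 28.0% in naive E18 and 28.3% in naive non-pregnant. The differences were -2.14 and -0.310 percentage points, a mean of -1.23 (SD 1.30), and the exact permutation p was 0.5, the smallest the design allows. Without TRBJ1-5 rearrangements the mean difference was -0.674 percentage points. The SD of this share was 1.59 percentage points over the 5 Treg EAE E18 libraries.

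**Figure D3:**
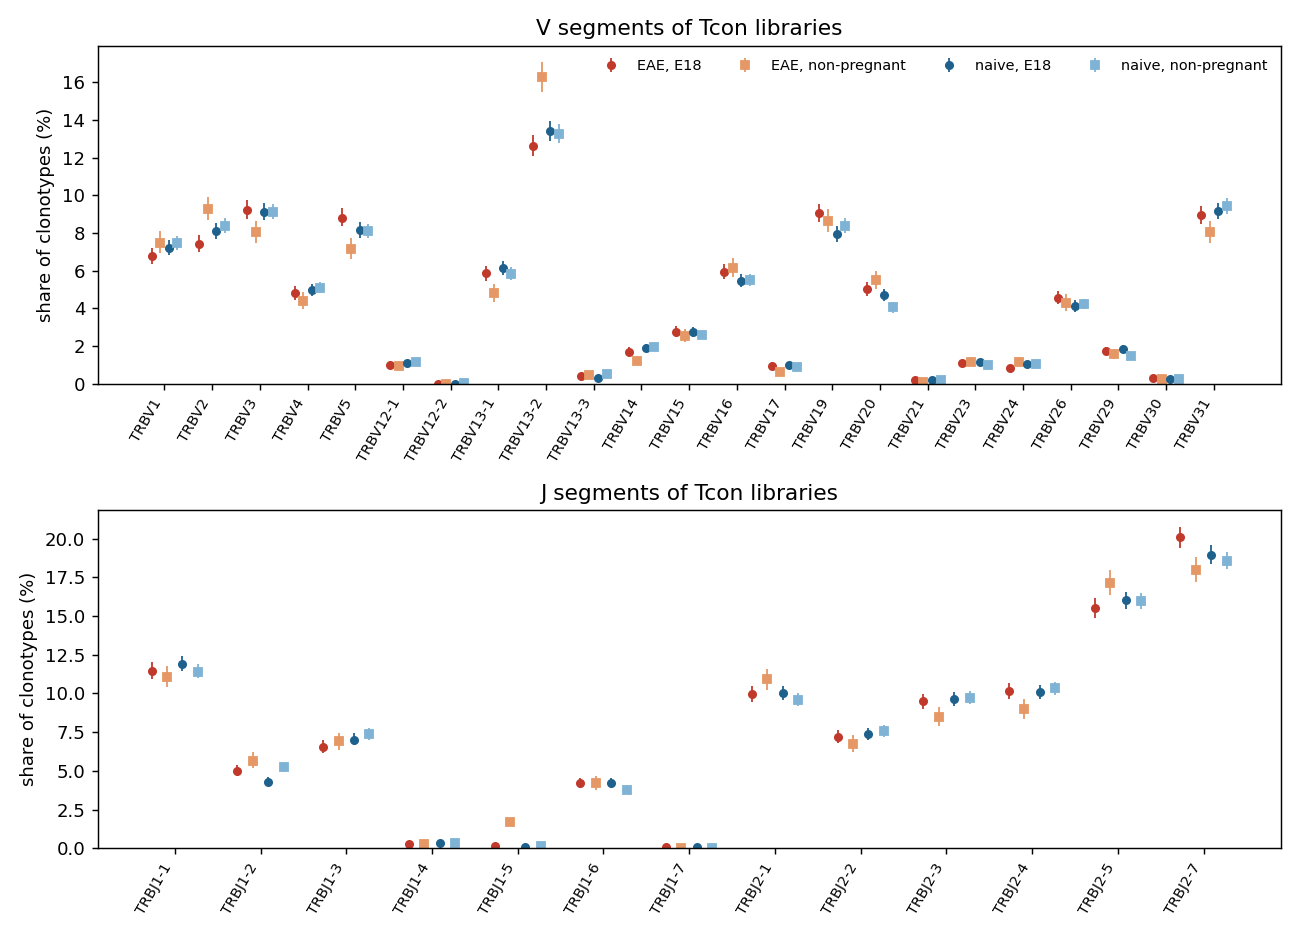
Share of clonotypes (%) of each V segment (top) and J segment (bottom) in the 4 Tcon libraries, with Wilson 95% intervals. The EAE non-pregnant library is the one apart at TRBV13-2 (16.3%) and TRBJ1-5 (1.66%), and both pregnant libraries lie below both non-pregnant ones at TRBJ1-2.

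Among the V segments, TRBV13-2 (chromosome 6, 41121396 to 41121832), 1 of the 3 segments of the Vβ8 family and the chain best known from myelin basic protein-specific cells of EAE, was the most used. It made up 12.6% of clonotypes in EAE E18 and 16.3% in EAE non-pregnant. It made up 13.4% in naive E18 and 13.3% in naive non-pregnant. Only the EAE non-pregnant library was high. Its log2 ratio went opposite ways in the 2 pairs, so it is not among the segments of like direction. By reads it held 16.0% in EAE E18, 24.9% in EAE non-pregnant, 18.3% in naive E18 and 14.2% in naive non-pregnant. In EAE non-pregnant no TRBV13-2 clonotype held more than 3.58% of the segment's reads.

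TRBV13-1 made up 5.85% of clonotypes in EAE E18, 4.797% in EAE non-pregnant, 6.13% in naive E18 and 5.83% in naive non-pregnant, higher at E18 in both pairs (log2 0.15, SE 0.15, adjusted p 0.836 by edgeR). TRBV13-3 was rare, at 0.417% in EAE E18 and 0.490% in EAE non-pregnant, and at 0.308% in naive E18 and 0.538% in naive non-pregnant. Its log2 difference was -0.57 (SE 0.35, adjusted p 0.836 by edgeR), and it was called lower when rearrangements with 1 read were left out. The 3 Vβ8 segments together made up 18.9% of clonotypes in EAE E18, 21.5% in EAE non-pregnant, 19.9% in naive E18 and 19.6% in naive non-pregnant.

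TRBV29 (chromosome 6, 41271403 to 41271881), which RefSeq annotates as a pseudogene, had one of the largest differences by reads. By reads it held 1.99% in EAE E18 and 1.42% in EAE non-pregnant. It held 4.40% in naive E18 and 0.672% in naive non-pregnant. By clonotypes it made up 1.72%, 1.55%, 1.83% and 1.49% in the same order. The log2 difference was 1.44 by reads (SE 0.56, adjusted p 0.323) and 0.22 by clonotypes (SE 0.15, adjusted p 0.836), both by edgeR.

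The difference of TRBV29 by reads in naive mice was spread over its clonotypes. The median TRBV29 clonotype had 43 reads in naive E18 and 7 in naive non-pregnant, where the median of all clonotypes was 13 and 11. The largest TRBV29 clonotype held 1.47% of the segment's reads in naive E18. Median reads per clonotype also differed between V segments within each library, from 2 for TRBV13-3 to 36.5 for TRBV23 in EAE E18. The part of these reads per clonotype in the read shares was not tested.

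TRBV19 had the other small unadjusted p by reads, with 8.11% in EAE E18, 12.6% in EAE non-pregnant, 3.24% in naive E18 and 6.81% in naive non-pregnant (log2 -1.01, SE 0.40, adjusted p 0.323 by edgeR). In EAE non-pregnant 28.2% of the segment's reads came from TRBV19 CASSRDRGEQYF. By clonotypes TRBV19 made up 9.06%, 8.64%, 7.92% and 8.37% in that order, and the log2 difference was -0.03 (SE 0.17).

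The other segments of like direction in both pairs had small differences. TRBV17 made up 0.954% of clonotypes in EAE E18, 0.649% in EAE non-pregnant, 0.998% in naive E18 and 0.905% in naive non-pregnant (log2 0.28, SE 0.21). TRBV5 made up 8.82%, 7.13%, 8.16% and 8.10% (log2 0.13, SE 0.16). TRBV2 was lower at E18, with 7.43%, 9.28%, 8.10% and 8.37% (log2 -0.20, SE 0.17). TRBV1 was lower too, with 6.76%, 7.49%, 7.23% and 7.45% (log2 -0.11, SE 0.16). TRBV30 made up 0.288%, 0.232%, 0.277% and 0.277% (log2 0.10, SE 0.52).

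Of the segments picked for their part in other cell types, TRBV13-2, TRBV29 and TRBV1 are the V segments favoured by natural killer T cells. Together they made up 21.1% of clonotypes in EAE E18, 25.3% in EAE non-pregnant, 22.5% in naive E18 and 22.2% in naive non-pregnant. TRBV12-1, listed for Treg from earlier results of these data and not compared with Treg here, made up 1.02% in EAE E18, 0.967% in EAE non-pregnant, 1.10% in naive E18 and 1.14% in naive non-pregnant. Its partner in the Vβ5 family, TRBV12-2, had 1 clonotype in each EAE library, 0 of 16231 in naive E18 and 0.0533% in naive non-pregnant. TRBV16 made up 5.46% to 6.16% in the 4 libraries.

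**Figure D4:**
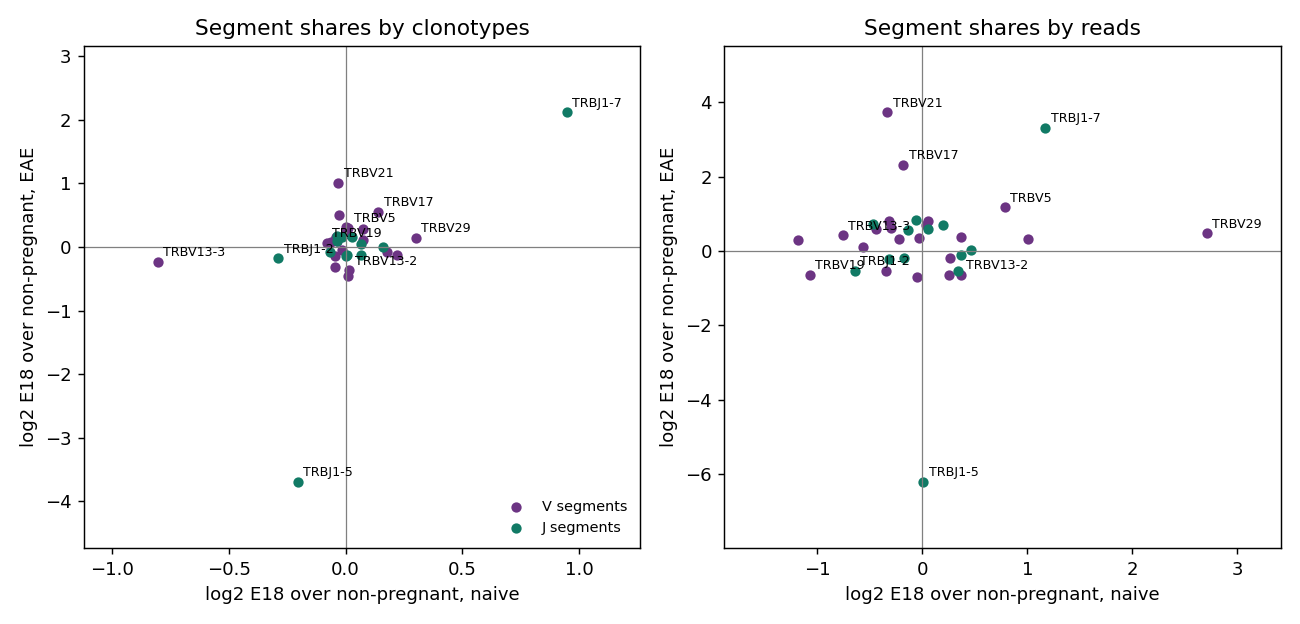
Log2 ratio of segment share, E18 over non-pregnant, in EAE (vertical) against naive (horizontal), by clonotypes (left) and reads (right); each point is 1 segment. By clonotypes most points lie near 0, with TRBJ1-5 at -3.69 in EAE and -0.20 in naive, and TRBJ1-7 and TRBV21 resting on 1 and 8 clonotypes in EAE non-pregnant; by reads TRBV29 lies at 2.71 in naive and 0.48 in EAE.

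As a whole, V use by clonotypes differed by 7.33% between EAE E18 and EAE non-pregnant and by 1.89% between naive E18 and naive non-pregnant, where the distance is the summed absolute difference in shares divided by 2 and 0% means identical use. Between replicates of Treg from EAE E18 mice this distance ran from 3.71% to 8.72%, over 10 pairs. For J segments the distances were 5.19% within EAE and 1.85% within naive mice, and 3.09% to 6.43% between those replicates. The EAE distances thus lay within the range of the Treg replicates and the naive ones below it. The distances were not brought to equal clonotype number, and counting error makes them larger in smaller libraries. The Treg replicates held 4401 to 9384 clonotypes and the naive Tcon libraries 16231 and 18776. The part of library size was not tested. The EAE non-pregnant library was also 6.65% from naive non-pregnant in V use, while EAE E18 was 3.29% from naive E18.

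Of 177 V-J combinations tested by clonotypes, edgeR called 0 (0%) and DESeq2 0. An unadjusted p under 0.05 was given to 5 by edgeR and to 0 by DESeq2. In the tested set 48 were higher at E18 in both pairs, 35 lower in both and 94 opposite. The combination with the largest difference of like direction was TRBV26 with TRBJ1-2. It made up 0.280% of clonotypes in EAE E18 (37 clonotypes) and 0.490% in EAE non-pregnant (40 clonotypes). It made up 0.160% in naive E18 (26 clonotypes) and 0.336% in naive non-pregnant (63 clonotypes). Its log2 difference was -0.98 (SE 0.31, adjusted p 0.252 by edgeR).

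TRBV2 with TRBJ1-2 was lower at E18 as well, with 0.432% in EAE E18, 0.673% in EAE non-pregnant, 0.456% in naive E18 and 0.703% in naive non-pregnant (log2 -0.67, SE 0.22, adjusted p 0.252 by edgeR). TRBV17 with TRBJ2-7 was higher at E18, with 0.197% against 0.122% in EAE and 0.234% against 0.122% in naive mice (log2 0.80, SE 0.44). TRBV13-3 with TRBJ2-5 and TRBV23 with TRBJ2-4 had log2 differences of -0.80 (SE 0.60) and 0.66 (SE 0.70) on 4 to 24 clonotypes per library.

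The difference between the EAE and the naive contrast was tested in a fit of the 11 DEREG libraries with 1 mean per group. Each Tcon group holds 1 library there, so all 4 residual degrees of freedom come from the 5 Treg EAE E18 libraries, among them the one with high TRBJ1-5, and Tcon were assumed to vary as those did. No segment passed, with smallest adjusted p-values of 0.793 by clonotypes and 0.959 by reads, and no V-J combination did, with a smallest adjusted p of 0.953 (edgeR). For TRBJ1-5 by clonotypes the difference of the contrasts was -3.46 on the log2 scale (SE 1.89, adjusted p 0.793).

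Bases inserted at the joints differed less in the naive pair than in the EAE pair. They were counted in rearrangements with an assigned D segment, which were 9926 in EAE E18, 6136 in EAE non-pregnant, 12159 in naive E18 and 14036 in naive non-pregnant. A rearrangement had a mean of 2.65 inserted bases in EAE E18 and 2.55 in EAE non-pregnant. It had 2.61 in naive E18 and 2.60 in naive non-pregnant, and the median was 2 in all 4 libraries. The differences were 0.0993 bases with EAE and 0.0104 in naive mice (mean 0.0548, SD 0.0629, exact permutation p 0.5).

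A few very long joints bear on that mean. Joints of over 30 unassigned bases numbered 7 in EAE E18, 0 in EAE non-pregnant, 10 in naive E18 and 6 in naive non-pregnant. Without them, in an alternative chosen after the data were seen, the means were 2.60, 2.55, 2.55 and 2.57 in that order, and the naive difference changed sign. The SD of the mean over the 5 Treg EAE E18 libraries was 0.0290 bases, below the EAE difference and above the naive one.

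At the V-D joint the means were 1.30 bases in EAE E18, 1.21 in EAE non-pregnant, 1.27 in naive E18 and 1.25 in naive non-pregnant. At the D-J joint they lay between 1.34 and 1.35 in all 4 libraries. The share with no base at D-J still differed in the EAE pair. It was 40.4% in EAE E18 (95% interval 39.4% to 41.4%) and 42.9% in EAE non-pregnant (41.7% to 44.2%). It was 41.0% in naive E18 and 40.3% in naive non-pregnant. At V-D this share was 40.7%, 42.8%, 41.4% and 41.3% in the same order. Rearrangements with no inserted base made up 16.0% in EAE E18 (95% interval 15.3% to 16.7%) and 17.6% in EAE non-pregnant (16.7% to 18.6%). They made up 16.9% in naive E18 and 16.5% in naive non-pregnant. The difference was -1.61 percentage points with EAE and 0.383 in naive mice. Both were larger than the SD of 0.294 percentage points over the 5 Treg EAE E18 libraries, while the naive difference was smaller than the SD of 0.824 over the 3 EAE periphery libraries. Because a difference between libraries varies more than single libraries do, the naive difference of 0.383 is not shown to exceed the Treg spread.

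The share without inserted bases was higher among the largest clones than among single reads in every library. It was 13.9% among rearrangements with 1 read and 20.6% among those with 100 or more in EAE E18. In EAE non-pregnant it was 17.2% and 21.9%, in naive E18 15.0% and 21.2%, and in naive non-pregnant 15.1% and 21.1%. At 2 to 9 reads the 4 libraries stood at 15.1%, 16.6%, 16.0% and 15.1%, and at 10 to 99 reads at 16.7%, 17.2%, 17.8% and 17.7%. In EAE non-pregnant the share thus did not climb below 100 reads.

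Pooled over all J segments, D use differed little. TRBD2 made up 42.9% of D-assigned rearrangements in EAE E18, 44.5% in EAE non-pregnant, 44.02% in naive E18 and 43.96% in naive non-pregnant. Within the TRBJ2 cluster the EAE pair differed beyond the counting intervals. There TRBD2 made up 53.13% in EAE E18 (interval 52% to 54.25%) and 56.75% in EAE non-pregnant (55.29% to 58.2%). It made up 54.68% in naive E18 and 55.02% in naive non-pregnant, with overlapping intervals. TRBD2 lies downstream of the TRBJ1 cluster and cannot join to it by deletion, yet 10.01% to 11.6% of D-assigned TRBJ1 rearrangements were assigned TRBD2, a measure of the error of D assignment from short stretches. No D segment was assigned to 28.1% to 29.5% of rearrangements.

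**Figure D5:**
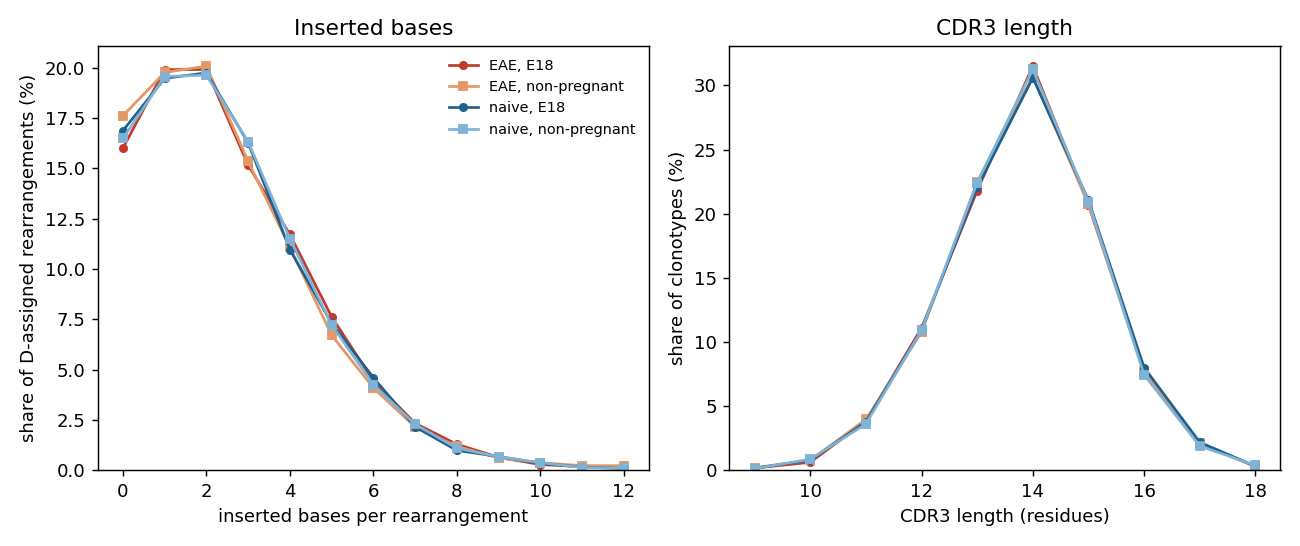
Left, share of D-assigned rearrangements (%) by number of inserted bases. Right, share of clonotypes (%) by CDR3 length in residues; the 4 Tcon libraries nearly overlie each other, with EAE E18 at 16.0% and EAE non-pregnant at 17.6% for 0 inserted bases.

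CDR3 length over clonotypes, each counted once, was slightly greater at E18 in both pairs, within the spread between Treg replicates. Its mean was 13.86 residues in EAE E18 and 13.82 in EAE non-pregnant, and 13.87 in naive E18 and 13.85 in naive non-pregnant. The differences were 0.0326 and 0.0277 residues (mean 0.0301, SD 0.00346, exact permutation p 0.5), against an SD of 0.0431 over the 5 Treg EAE E18 libraries. The naive E18 and EAE E18 libraries held 9 and 7 clonotypes of over 25 residues, naive non-pregnant 6 and EAE non-pregnant 0. Without these the mean difference was 0.0196 residues. Weighted by reads, the mean length was lower at E18 in the naive pair, at 13.77 against 13.80 residues. Of 19 V segments with at least 50 clonotypes in every library, 10 had longer CDR3s at E18 in both pairs, 3 shorter in both and 6 opposite. Among these 10, TRBV17 had the largest EAE difference, 0.280 residues, on as few as 53 clonotypes.

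Clonotypes with hydrophobic residues at both CDR3 positions 6 and 7, a feature linked to self-reactivity, made up 2.61% in EAE E18 and 2.28% in EAE non-pregnant. They made up 2.46% in both naive libraries. The differences were 0.329 and 0.0030 percentage points (mean 0.166, SD 0.231), and the SD over the 5 Treg EAE E18 libraries was 0.166 percentage points. Counting a hydrophobic residue at 1 or both positions, the shares were 33.5%, 35.2%, 34.8% and 34.3% in the usual order, so the EAE difference turned.

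Other loop features went opposite ways in the pairs or differed little. Clonotypes with a positive net charge made up 8.58% in EAE E18 and 7.60% in EAE non-pregnant, and 8.60% in naive E18 and 8.79% in naive non-pregnant. Those with a cysteine in the loop made up 0.117% to 0.196%. Of the 20 amino acids, 6 were more frequent among loop residues at E18 in both pairs, 3 less frequent in both and 11 opposite. Serine made up 15.05% of loop residues in EAE E18 and 14.3% in EAE non-pregnant, against 14.8% in naive E18 and 15.1% in naive non-pregnant. Clonotypes encoded by more than 1 nucleotide sequence made up 5.17%, 3.99%, 5.42% and 5.51%, lowest in the library with the fewest clonotypes.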

How the data were processed

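Per the labels, TCRβ rearrangements were amplified by PCR from genomic DNA with primers for all listed mouse V and J segments. The deposited tables give per rearrangement the read count, not normalized, and its fraction of the table's reads. The program that assigned segments is not given in the sources used here. The submitters' processing notes name mm10. Segment positions come from the RefSeq annotation of GRCm38.p6. CDR3s without the usual cysteine start or phenylalanine or tryptophan end (0.903% to 1.26% of rearrangements) were kept.

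Clonotypes and reads per segment were compared in R 4.3.3 with edgeR 4.0.16 (TMM, quasi-likelihood, immunization as a term, mean count of at least 10). V and J were fitted apart and adjusted together at 0.05. DESeq2 1.42.0 was the other tool. Its dispersion trend could not be fitted in 1 fit, where gene-wise dispersions were used. Other values were compared within immunization by exact permutation. Thinning used 20 draws. With 1 library per group, p-values say nothing of the spread between mice of a group. The main edgeR p-values rest on the spread between these libraries, and those of DESeq2 can rest on counting error alone. Inserted bases are those assigned to no segment, in D-assigned rearrangements.

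The named items were all segments and V-J combinations past the threshold, the 10 segments and 5 combinations with the largest log2 difference among those of like direction in both pairs, all J segments, listed Vβ8, Vβ5, TRBV16, TRBV1 and TRBV29 segments, the 5 largest clonotypes per library and the 3 largest of each gestational state alone. The libraries and lists were chosen with earlier results of these data known. Others were named after their values were seen. Alternatives tried were other tools and filters, reads in place of clonotypes, and leaving out each library.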

Additional observations from a re-analysis of the deposited data

Results flagged for a closer look

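Of the 8 measures compared, 4 moved one way at E18 in the EAE pair and the opposite way in the naive pair, and the difference between the pairs was not tested for these measures. The share of the 10 largest clonotypes differed by -3.64 percentage points with EAE and by 0.116 in naive mice. Clonotypes at equal reads differed by 5134 and by -2448. Evenness differed by 0.0642 and by -0.000577. The share of rearrangements without inserted bases differed by -1.61 percentage points and by 0.383.

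Among the 5 Treg EAE E18 libraries, 1 stood far from the others in TRBJ1-5, at 1.21% of clonotypes where the other 4 lay at 0.159% to 0.234%. Its gap was 0.929 of the whole range, above the critical value of 0.71 for 5 samples, which chance passes in about 1 of 20 groups. EAE non-pregnant Tcon, at 1.66%, lay in the same high range.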

How the results depend on the processing

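Over 11 results and 103 alternatives, 49 alternatives other than leaving out a library kept their value within the spread or their count. DESeq2 called 1 segment by clonotypes (TRBJ1-2, adjusted p 0.000155) and 2 by reads (TRBJ1-2 and TRBJ2-5), all lower at E18. Leaving out rearrangements with 1 read gave 2 calls by clonotypes, TRBV13-3 and TRBJ1-2 (smallest adjusted p 0.00261), both lower. Without a filter on low counts, 1 V-J combination was called, TRBV13-2 with TRBJ1-5, lower at E18 (adjusted p 0.0129). The cause of these changes was not tested, and the DESeq2 calls carry the limit of counting error given above. Weighting by reads moved the mean difference in inserted bases to 0.157 and in the share without inserted bases to -3.93 percentage points. In CDR3 length it became 0.106 residues (SD 0.196 over the differences of the pairs). There the EAE pair stood at 13.70 at E18 against 13.45, while the naive pair turned, at 13.77 against 13.80. CDR3 length moved to 0.0366 with at least 2 reads per rearrangement and to 0.0196 without CDR3s of over 25 residues, an alternative chosen after seeing the data. With a hydrophobic residue at either position, that difference became -0.621 percentage points. Leaving out 1 library leaves the difference of the other pair, which lies within the SD of both differences by construction and so says nothing of stability. It ran from -3.64 to 0.116 for the share of the 10 largest clonotypes, -2448 to 5134 for clonotypes, -0.000577 to 0.0642 for evenness, 0.0104 to 0.0993 for inserted bases, -1.61 to 0.383 for the share without them, 0.0277 to 0.0326 for CDR3 length, 0.0030 to 0.329 for hydrophobic positions and -2.14 to -0.310 for the TRBJ1 cluster, with 0 segments or combinations called. No paired analysis was possible because the groups compared share fewer than 2 replicate numbers.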
